A study of Homo sapiens with 6 samples.

Results

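Long intergenic noncoding RNAs (lincRNAs) are transcripts made from their own promoters between protein-coding genes. The members described here were the rows typed lincRNA in the authors' table that lay outside chromosomes X and Y, had a mean of at least 1 FPKM over the 6 libraries, and were neither SNHG-named hosts of small nucleolar RNAs nor GAS5. FPKM divides a gene's fragments by gene length and by library size. The rule kept 242 of the 2568 lincRNA rows, in a table of 26789 genes. Members were thus chosen by their mean FPKM over all 6 libraries, and their abundance is a description. The rule did not use the difference between the groups directly. A member near 1 FPKM could still meet the limit through a high level in either group alone, so its membership is not independent of that difference.

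All 6 libraries came from wild-type cells of the human neuroblastoma line SK-N-SH, of which 3 were given plain medium (control) and 3 dopamine, each for 6 h. Since the labelled dose of 40 M appears to lack a prefix, it is not interpreted. The design text names SH-SY5Y, a subline of SK-N-SH, as the treated cells, while every sample is labelled SK-N-SH. Nothing says that the replicates were separate cultures, so the spread that p-values measure here may be technical.

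Some lincRNAs act in the nucleus, as NEAT1 does by building paraspeckles, and others in the cytoplasm, as NORAD does by binding Pumilio proteins. Many others start at the promoter of a coding gene on the opposite strand, or serve as the precursor of a microRNA, and for most no function is known. A gene annotated as a lincRNA can also turn out to encode a short protein.

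Depth was recovered from the step size of low values in short pseudogenes and ran from 19433000 to 24251000 fragments per library. A level of 1 FPKM in a gene of 1 kb thus stood for 19.4 to 24.3 fragments. The adrenergic (9 of 9) and mesenchymal (7 of 7) marker genes of neuroblastoma were all at 1 FPKM or more. Their summed levels were 345 to 393 and 1138 to 1277 FPKM in the control libraries, and 342 to 392 and 1131 to 1182 FPKM in the dopamine libraries. Of 4 epithelial markers KRT8 (mean 16.4 FPKM) and KRT19 (1.68 FPKM) were at 1 FPKM or more, with EPCAM at 0.152 and CDH1 at 0.0608 FPKM. The summed level of the 4, most of it KRT8, did not overlap between the groups, as was so for 38.4% of all tested genes. It was 19.04 to 21.75 FPKM in the control libraries and 15.08 to 16.74 FPKM in the dopamine libraries, and its part in the results was not tested. No listed blood, endothelial or hepatocyte marker reached 1 FPKM. Fewer cells of a type and less RNA per cell cannot be told apart in such bulk samples.

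Some sequences that belong to members described later are given first, beginning with a 300-base window of LINC00657, the gene now called NORAD, shown because it holds 3 Pumilio elements. The window covers transcript bases 1159 to 1458 of the GENCODE transcript (GRCh38 chr20:36049503-36049802, minus strand), and capitals mark each match to TGTANATA, searched on the transcript strand only.
LINC00657: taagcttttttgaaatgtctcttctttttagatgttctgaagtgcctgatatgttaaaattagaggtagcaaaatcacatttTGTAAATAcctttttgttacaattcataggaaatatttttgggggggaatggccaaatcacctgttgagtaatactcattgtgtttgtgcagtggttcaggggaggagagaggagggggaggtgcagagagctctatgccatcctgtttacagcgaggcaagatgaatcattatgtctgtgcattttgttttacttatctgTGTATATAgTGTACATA
The whole LINC00657 transcript of 5339 bases held 15 such elements, and the 22743 bases of NEAT1 held 6. Among the 178 members with a GENCODE transcript, 17 (9.6%) held at least 1. Of 1107 windows of 300 bases cut from these transcripts 31 (2.8%) held an element, and 6 held more than 1, of which 4 were from LINC00657.

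The second set is of mature microRNAs whose hairpins lie within members that the table lists at 1 FPKM or more, from RefSeq (GRCh38.p14). Bases 2 to 8, the seed with which a microRNA pairs with its targets, are in capitals. MIR22HG is the host of miR-22, the row named MIR24-2 (now MIR23AHG) spans the hairpins of miR-23a, miR-27a and miR-24, and RP11-2B6.3 spans those of 3 let-7 microRNAs.
hsa-miR-22-3p: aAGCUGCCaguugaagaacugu
hsa-miR-23a-3p: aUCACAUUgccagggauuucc
hsa-miR-27a-3p: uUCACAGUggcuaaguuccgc
hsa-miR-24-3p: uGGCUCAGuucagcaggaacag
hsa-let-7a-5p: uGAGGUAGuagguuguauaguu
hsa-let-7d-5p: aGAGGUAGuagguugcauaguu
hsa-let-7f-5p: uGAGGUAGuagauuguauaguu
The 3 let-7 sequences share the seed GAGGUAG, and the seeds of the other 4 differ from it and from each other. The libraries measured the host transcripts, not the mature microRNAs.

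The last sequence is the promoter of NCBP2-AS2, which lies 26 bases from a coding gene on the opposite strand, NCBP2 (RefSeq, GRCh38.p14 chr3:196942424-196942723, plus strand). Capitals mark the core of the element bound by ETS transcription factors.
NCBP2-AS2: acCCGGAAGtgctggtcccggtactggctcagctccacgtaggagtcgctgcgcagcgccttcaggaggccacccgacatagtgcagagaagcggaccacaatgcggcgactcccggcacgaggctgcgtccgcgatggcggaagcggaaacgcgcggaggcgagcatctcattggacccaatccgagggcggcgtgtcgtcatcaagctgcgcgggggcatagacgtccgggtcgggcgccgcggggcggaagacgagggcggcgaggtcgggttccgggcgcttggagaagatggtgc
The core CCGGAAG, searched on both strands, was found in 20 of the 91 member promoters in the RefSeq table (22.0%) and in 10.67% of all 27305 promoters of the same length. Member promoters also had a higher median GC content, 67.0% against 58.3% over all, and the difference in GC was not matched in that count. The cyclic AMP response element TGACGTCA was in 3 of the 91 (3.3%, against 1.98% of all), and the TATA box TATAAA in 5 (5.5%, against 11.95%).

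The members spread over 22 chromosomes, most often chromosome 1 (25) and chromosome 19 (20). Their identifiers date from an older annotation: 178 of the 242 are found in GENCODE v29, where 153 are still lincRNAs. There 8 are protein-coding, among them LINC00493 (SMIM26), NCBP2-AS2 (NCBP2AS2) and LINC00116 (MTLN), the last of which encodes a mitochondrial microprotein. A further 6 are pseudogenes. Of the 178, 44 have a single exon in their largest transcript model, 36 start head to head with a coding gene within 1000 bases, and 52 overlap a coding gene, 16 of them on its own strand. Clone-based names were carried by 182 of the 242, some of which have since been given a gene symbol.

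Many members were close to the lower limit, since 114 had a mean under 2 FPKM, 40 had 5 or more and 13 had 10 or more. The 3 just inside were RP4-555D20.2 (1.02 FPKM), RP11-403I13.8 (1.02 FPKM) and CTB-58E17.1 (1.02 FPKM). Just outside were RP11-498C9.15 (0.998 FPKM), RP11-262H14.1 (0.992 FPKM) and CTC-459F4.3 (0.987 FPKM). The 242 together summed to 909 to 952 FPKM in the control libraries and 957 to 974 FPKM in the dopamine libraries, 0.387 to 0.416% of all FPKM, and the 8 most abundant held 26.8 to 29.3% of that sum.

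The most abundant member was RP11-865I6.2 (hg19 chromosome 8, 69760977 to 69764998), a lincRNA with no assigned function. Its level was 64.9, 68.3 and 64.1 FPKM in control replicates 1 to 3 and 65.4, 72.7 and 57.0 FPKM in dopamine replicates 1 to 3. The dopamine libraries held both its highest and its lowest value, and the groups overlapped. LINC00493, since renamed SMIM26 for the mitochondrial microprotein it encodes (hg19 chromosome 20, 18548064 to 18550207), followed at 37.3 ± 3.73 FPKM in control cells and 41.3 ± 4.84 FPKM with dopamine (SD, n = 3 per group, as below). The means differed by less than the sum of these SDs.

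**Figure D1:**
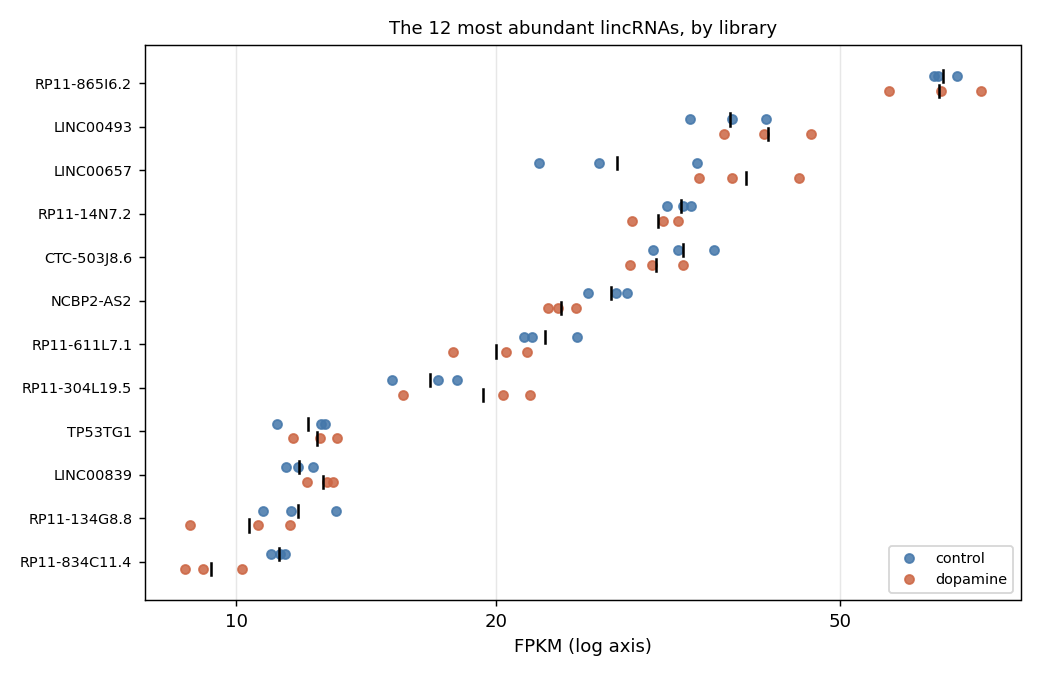
FPKM (log axis) of the 12 members with the highest mean level, with 1 point per library (3 control, 3 dopamine) and a black bar at each group's mean. RP11-865I6.2 lies highest in both groups, and the groups are apart for LINC00657, NCBP2-AS2 and RP11-834C11.4.

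LINC00657, or NORAD (hg19 chromosome 20, 34633544 to 34638882), is the cytoplasmic RNA that holds the Pumilio elements shown above. Control replicates 1 to 3 gave 34.1, 26.3 and 22.4 FPKM, and dopamine replicates 1 to 3 gave 34.3, 37.5 and 44.7 FPKM. Each dopamine library was above each control library, although control replicate 1 and dopamine replicate 1 were nearly equal. The means were 27.6 ± 5.97 and 38.8 ± 5.35 FPKM. This difference of 0.50 on the log2 scale (SE 0.15) did not pass the test (limma, adjusted p = 0.11). PUM2, a Pumilio protein that NORAD binds, was at 6.52 ± 1.61 FPKM in control cells and 9.96 ± 1.80 FPKM with dopamine (log2 fold change 0.59, limma adjusted p = 0.11, and 0.23 with GC and length corrected for). Of the 4 measured genes of the NORAD and Pumilio list, 1 (PUM2) reached an unadjusted p under 0.05, as did 32.5% of all tested genes. The median log2 fold change over the 4 was 0.17.

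Further members of high level without an assigned role were RP11-14N7.2 (mean 31.7 FPKM over the 6 libraries), CTC-503J8.6 (31.7 FPKM) and RP11-611L7.1 (21.4 FPKM). In all 3 the groups overlapped, with log2 fold changes of -0.09, -0.10 and -0.18. RP11-304L19.5, now SNHG19 and thus a host of a small nucleolar RNA by its present name, had a mean of 18 FPKM and a log2 fold change of 0.19. TP53TG1, a target of p53, had 12.3 FPKM, and LINC00839 had 12.2 FPKM, with log2 fold changes of 0.03 and 0.09 and overlapping groups. RP11-134G8.8, which lies on the strand of the p53 target PHLDA3 and overlaps it in GENCODE v29, had 11.1 FPKM and a log2 fold change of -0.19, again with overlap.

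NCBP2-AS2 (hg19 chromosome 3, 196669494 to 196670411) was lower in each dopamine library. It had 27.5, 28.3 and 25.5 FPKM in the control libraries and 22.9, 24.7 and 23.6 FPKM in the dopamine libraries. The log2 fold change was -0.19 (SE 0.08, limma adjusted p = 0.14). NCBP2, its coding neighbour, which encodes the smaller subunit of the nuclear cap-binding complex, had means on the other side: 11.6 ± 1.36 FPKM in control cells and 15.1 ± 2.02 FPKM with dopamine (log2 fold change 0.37, limma adjusted p = 0.11). Once GC content and transcript length were corrected for, the values were -0.05 for NCBP2-AS2 and -0.00 for NCBP2, so the difference between the neighbours was not seen there. RP11-834C11.4 (LINC02381, hg19 chromosome 12, 54519882 to 54526627) was also lower in each dopamine library, with 11.2 ± 0.219 FPKM in control cells and 9.34 ± 0.737 FPKM with dopamine (log2 fold change -0.25, limma adjusted p = 0.12).

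No member passed an adjusted p of 0.05 in the comparison of dopamine with control cells (limma on log2(FPKM + 0.5), two-sided, adjusted over 11791 genes). Over all tested genes 12 did, or 0.102% (0.0848% higher and 0.017% lower with dopamine). The lowest adjusted p of a member was 0.11. Without adjustment 41 of the 242 (16.9%) had a p under 0.05, 30 of them higher and 11 lower with dopamine, where the share over all tested genes was 32.5% (24.4% higher and 8.05% lower). Under median-of-ratios scaling 20 such members were higher and 30 lower, and under quantile normalization 14 were higher and 37 lower. The prevailing direction thus depends on the scaling. The median log2 fold change over all tested genes moved as well, from 0.08 to -0.02 and -0.01. The shares of all genes with such a p under these scalings are not given here, so the shift is not particular to the members. The groups did not overlap in 55 members (22.7%), 34 higher and 21 lower, against 38.4% of all genes (2872 higher and 1659 lower). With single libraries left out, a member passed in 1 case: without control replicate 1, 17 members did, as did 2177 of all genes.

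The lower share was seen at each level. Between 1 and 2 FPKM 20.2% of 114 members and 27.4% of 1571 protein-coding genes had an unadjusted p under 0.05. From 2 to 5 FPKM the shares were 10 of 88 and 37.7% of 2780, and at 5 FPKM or more 20% of 40 and 35.9% of 5916. The median log2 fold change of the members was 0.03, with 135 higher and 107 lower means, beside 0.08 over all genes. It was -0.07 under median-of-ratios scaling (-0.02 over all genes) and -0.12 under quantile normalization (-0.01 over all genes). The sign of both medians thus depends on the scaling. Below 5 FPKM the protein-coding genes had medians of 0.24 (1 to 2 FPKM) and 0.23 (2 to 5 FPKM), and the members 0.01 and 0.03. At 5 FPKM or more the order was the other way, with a median of 0.01 for protein-coding genes and 0.06 for the members. Members also varied more within a group, with a median SD of 0.19 log2 units against 0.14 over all genes, while their median size of change was 0.18 against 0.19. Whether these shares differ beyond what the spread of the members gives was not tested.

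**Figure D2:**
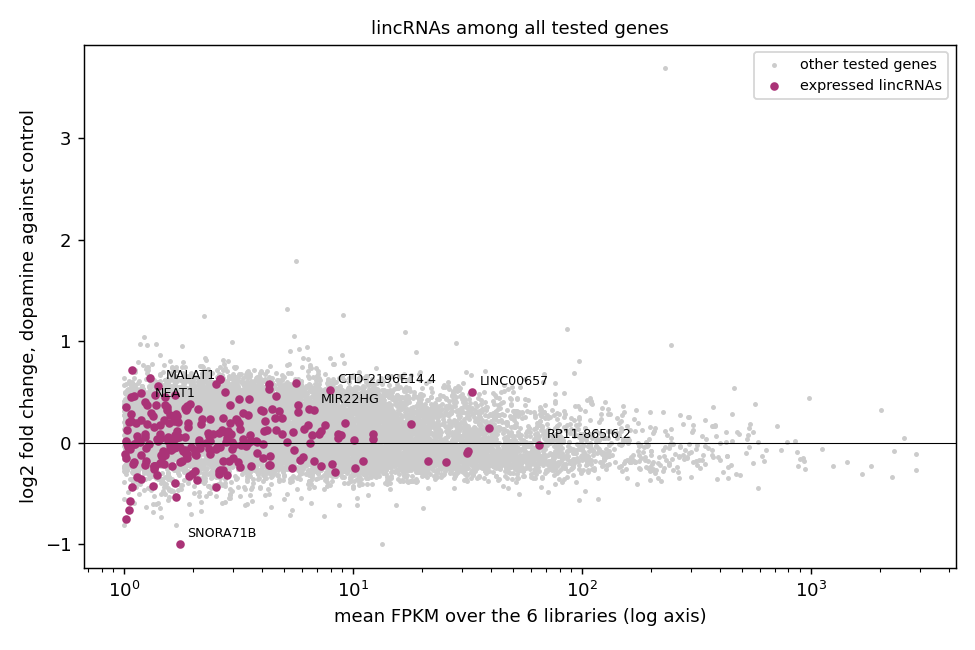
Log2 fold change of dopamine against control cells by mean FPKM over the 6 libraries (log axis), with 1 point per tested gene and the 242 members in purple. Members lie on both sides of 0, and SNORA71B is the 1 member that differs at least 2-fold.

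Among members with groups that did not overlap, the 8 largest differences in the higher direction lay between 0.52 and 0.64 on the log2 scale. The smallest p of any member belonged to CTD-2196E14.4 (hg19 chromosome 16, 23683453 to 23686820), a lincRNA with no assigned function. It had 7.1, 5.88 and 6.50 FPKM in the control libraries and 9.73, 9.01 and 9.68 FPKM in the dopamine libraries. The dopamine values lay close together and well above all control values, with means of 6.49 ± 0.610 and 9.47 ± 0.402 FPKM. The log2 fold change was 0.52 (SE 0.10, limma adjusted p = 0.11). CTD-2196E14.9, which overlaps it in coordinates and lies 137 bases from DCTN5, a dynactin subunit gene, had 3.44 ± 0.738 and 5.14 ± 0.490 FPKM (log2 fold change 0.53). The sources used here do not say whether the counting used strand, so the values of these overlapping rows cannot be treated as separate.

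The other members of this group without an assigned function were RP11-196G18.24 (0.64), RP11-225B17.2 (0.63), CTD-3195I5.1 (0.63), RP11-220I1.1 (0.58) and CTC-297N7.8 (0.57), all log2 fold changes with limma adjusted p of 0.11. CTC-297N7.8 had 2.32, 1.78 and 1.75 FPKM in control libraries and 3.31, 2.98 and 3.10 FPKM with dopamine. RP11-196G18.24, 2905 bases from the histone gene HIST2H2AA3, had 0.853, 0.923 and 0.937 FPKM in control libraries and 1.37, 1.77 and 1.95 FPKM with dopamine. These last values stood for only 13, 15 and 13 fragments and for 19, 23 and 28 fragments. The part of counting error in them was not tested. All control values of RP11-196G18.24 were under 1 FPKM, so it met the level limit through its dopamine values. RP11-225B17.2 rested on 17, 21 and 23 fragments in the control libraries and 25, 26 and 46 in the dopamine libraries. Its log2 fold change was 0.41 without dopamine replicate 3 and 0.30 with GC and length corrected for.

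In the opposite direction SNORA71B, listed as a lincRNA though it is a small nucleolar RNA gene of 137 bases, had the largest difference (log2 fold change -1.0). It rested on 6, 5 and 12 fragments in the control libraries and 2, 4 and 2 in the dopamine libraries, and its closest values were 1.51 FPKM in a library of each group. RP11-10C24.1 (-0.75) rested on 15, 20 and 15 fragments against 13, 4 and 5, with dopamine replicate 1 near the control values. Both rest on so few fragments that counting error alone is large.

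Next among the members of lower mean were RP13-941N14.1, now KDM2B-DT, on the strand opposite to the histone demethylase gene KDM2B, and AC009014.3, now the coding gene SMIM32. KDM2B-DT had 0.971, 1.97 and 1.33 FPKM in control libraries and 0.710, 0.664 and 0.688 FPKM with dopamine (log2 fold change -0.67, limma adjusted p = 0.11). KDM2B itself differed by 0.10. AC009014.3 had 1.37, 1.34 and 1.28 FPKM against 0.840, 0.804 and 0.898 FPKM, both groups tight (log2 fold change -0.44, limma adjusted p = 0.11). All dopamine values of AC009014.3 and KDM2B-DT were under 1 FPKM, so both met the level limit through their control values. The remaining 4 of the 8 were RP11-277L2.3 (-0.57), CITF22-92A6.1 (-0.53), RP11-638I8.1 (-0.42) and RP11-440D17.3 (-0.33). All dopamine values of RP11-277L2.3 were also under 1 FPKM, as were the dopamine means of RP11-10C24.1 and SNORA71B. These members too met the level limit through their control values, so their lower direction is not independent of the rule. RP11-638I8.1 is now the pseudogene GTF2IP13, a near-identical copy of GTF2I sequence, so its counts may be shared with other copies.

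**Figure D3:**
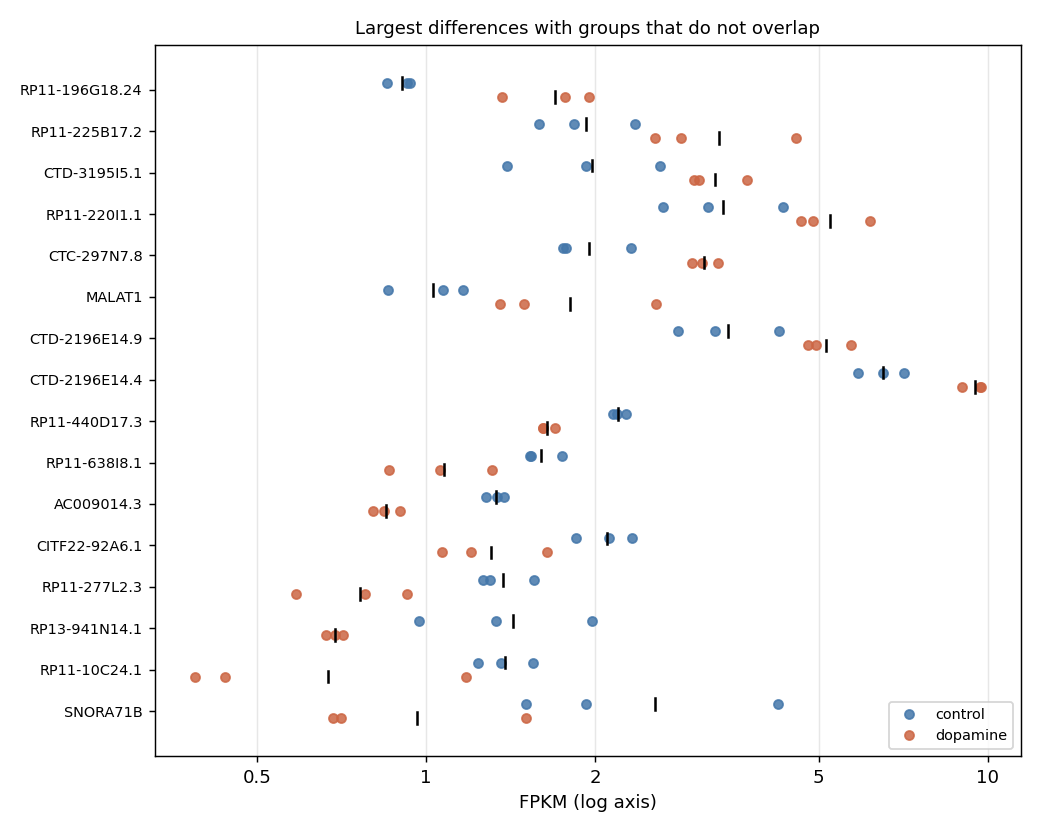
FPKM (log axis) in each library of the 8 members with the largest difference in each direction among those whose groups did not overlap, with a black bar at each group's mean. CTD-2196E14.4 and AC009014.3 have tight groups, while SNORA71B and RP11-10C24.1 spread widely.

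Of the 9 nuclear lincRNAs listed for this comparison, 3 were members: MALAT1, the long RNA of nuclear speckles, NEAT1, and CRNDE. MALAT1 (hg19 chromosome 11, 65265233 to 65273940) had 1.16, 1.07 and 0.855 FPKM in the control libraries and 1.49, 1.36 and 2.56 FPKM in the dopamine libraries. Every dopamine value was above every control value, and dopamine replicate 3 stood well above the others. The log2 fold change was 0.56 (SE 0.20, limma adjusted p = 0.12), and 0.33 without dopamine replicate 3. NEAT1, on the same chromosome at 65190245 to 65213011, had 1.22, 0.894 and 0.962 FPKM against 1.52, 1.01 and 2.0 FPKM, where the groups overlapped and dopamine replicate 3 was again highest (log2 fold change 0.37, limma adjusted p = 0.20, and 0.20 without dopamine replicate 3). CRNDE, at 1.51 ± 0.221 and 1.90 ± 0.202 FPKM, had a log2 fold change of 0.26.

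Of the 16 proteins of the paraspeckle list all were measured, and none passed the adjusted threshold. TARDBP (log2 fold change 0.37) and HNRNPA1 (0.33), both RNA-binding proteins, had unadjusted p under 0.05 and higher means with dopamine. That is 2 of 16, below the 32.5% of all tested genes. Without dopamine replicate 3 their values were 0.23 and 0.22, and with GC and length corrected for -0.01 and 0.03. The median log2 fold change of the list was 0.11, and 10 of 16 had a higher mean, a share close to the 7076 of 11791 over all genes.

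The nuclear exosome, which degrades many lincRNAs, had 18 measured genes. None passed, 5 had an unadjusted p under 0.05 with a higher mean and 1 with a lower mean, and the median log2 fold change was 0.18. These 6 of 18 are about the share over all tested genes, 32.5%. The 4 with the smallest p were MPHOSPH6 (0.53), EXOSC6 (-0.30), EXOSC9 (0.61) and C1D (0.49). With GC and length corrected for, the log2 fold changes were 0.25 for MPHOSPH6, -0.52 for EXOSC6, 0.17 for EXOSC9 and 0.01 for C1D. Of 11 measured rows for proteins of RNase P and RNase MRP, 2 had such a p with a higher mean (among them RPP40, 0.53) and 1 with a lower mean (RPP25, -0.30), again near the 32.5% of all genes. The corrected values were 0.29 for RPP40 and -0.14 for RPP25. The 6 proteins of telomerase had none, with a median of -0.08. The RNAs of these enzymes were listed below 1 FPKM: RMRP at 0.495 FPKM, RPPH1 (typed antisense) at 0.376 FPKM and TERC at 0.438 FPKM. How fully the libraries captured and counted such RNAs was not tested, so these values are not a measure of their cellular level.

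Among hosts of microRNAs, MIR22HG had 5.71, 6.23 and 5.96 FPKM in the control libraries and 7.87, 6.78 and 8.09 FPKM in the dopamine libraries. The groups did not overlap, with a log2 fold change of 0.32 (SE 0.10, limma adjusted p = 0.11). Its locus overlaps WDR81 on the opposite strand, which had a log2 fold change of -0.17. The miR-23a, miR-27a and miR-24 host was on the lower side, at 2.82, 3.20 and 2.68 FPKM against 2.38, 2.49 and 2.03 FPKM, also without overlap (log2 fold change -0.28, limma adjusted p = 0.16). The let-7 host RP11-2B6.3 ranged from 0.412 to 1.76 FPKM within the control libraries alone, wider than the 1.03 to 1.39 FPKM of the dopamine libraries. MIR940, whose row also spans the miR-3677 hairpin, had 1.51 ± 0.0633 and 1.21 ± 0.0895 FPKM (log2 fold change -0.23).

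LINC00152, or CYTOR, and MIR4435-1HG are close copies on chromosome 2 that hold identical miR-4435 hairpin products, so how reads were divided between them is uncertain. LINC00152 had 6.24 ± 0.365 and 5.48 ± 0.316 FPKM, with groups that did not overlap (log2 fold change -0.17, limma adjusted p = 0.24). MIR4435-1HG had 2.42 ± 0.117 and 2.3 ± 0.238 FPKM, a difference within the spread.

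The list of lincRNAs linked to stress or p53 held 4 members, all with a higher mean as deposited, and 1 of them, MIR22HG, had an unadjusted p under 0.05. Over all tested genes 7076 of 11791 had a higher mean, and 32.5% had an unadjusted p under 0.05. With GC and length corrected for, EPB41L4A-AS1 (-0.06) and TP53TG1 (-0.02) were on the other side of 0, and TP53TG1 was so in 5 of the 18 alternatives. EPB41L4A-AS1 had 1.80, 1.73 and 1.68 FPKM against 2.28, 2.0 and 1.90 FPKM, groups that did not overlap (log2 fold change 0.19). Of 17 names on the neuroblastoma list GATA3-AS1, on the strand opposite to the adrenergic regulator GATA3, was the 1 member, at 3.06 ± 0.165 and 3.01 ± 0.199 FPKM (log2 fold change -0.02). GATA3, 120 bases away, had a mean of 30.9 FPKM. No imprinted or catalytic RNA on the lists was a member. Some well-known noncoding RNAs are listed under other types and so fall outside the rule, among them H19 (50.2 FPKM) and DANCR (34.8 FPKM).

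The libraries differed in how their values depended on base composition. The slope of a library's log2 deviation per 10 points of GC was 0.02, 0.11 and 0.22 in control replicates 1 to 3 and -0.03, -0.06 and -0.26 in dopamine replicates 1 to 3, so the groups did not overlap. Dopamine replicate 3, with the steepest slope, held the highest value of 67 members, and control replicate 3 the lowest value of 62. After removing the dependence on GC and length, MALAT1 differed by 0.19, LINC00657 by 0.16, NEAT1 by 0.12 and MIR22HG by 0.21 on the log2 scale. CRNDE went from 0.26 to -0.06 and EPB41L4A-AS1 from 0.19 to -0.06, while RP13-941N14.1 stayed at -0.67 and SNORA71B at -0.97. LINC00152 went from -0.17 to -0.50, with an adjusted p of 0.18 (limma). The correction could be made for 178 of 242 members (73.6%), too few for a statement on the whole set, and it can also remove part of a true difference since the slopes follow the groups.

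**Figure D4:**
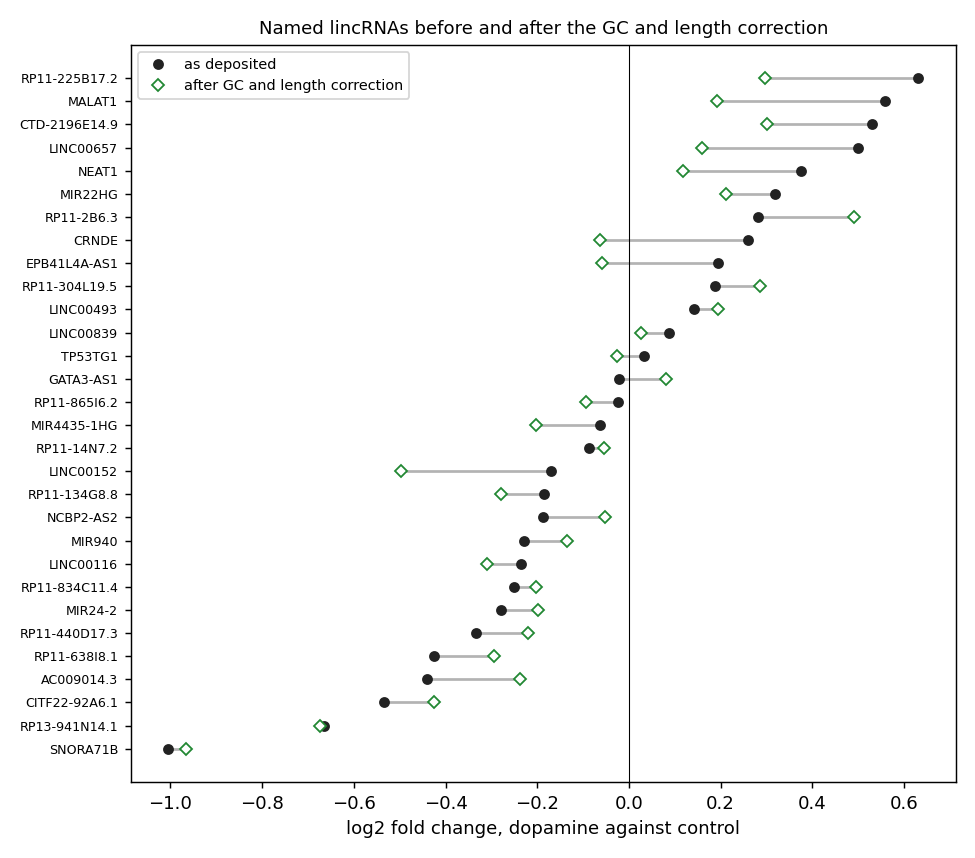
Log2 fold change of dopamine against control cells for the 30 named members with GC content and length, as deposited (filled circles) and after the GC and length correction (open diamonds). The correction brings 20 of the 30 closer to 0, MALAT1 and LINC00657 among them, and moves 10 farther away.

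Each member was set beside its nearest protein-coding gene by hg19 coordinates, which was tested for 190 of the 242. Over these 190 pairs of log2 fold changes, which share the 6 libraries, Pearson's r was 0.12 and Spearman's rho 0.15, and 105 pairs (55.3%) had the same sign. For the 33 overlapping pairs r was 0.22, for 57 pairs with a gap of 1 to 1000 bases 0.18, and for the 2 classes of 50 pairs that lay farther apart, up to 10 kb and beyond it, 0.16 and 0.07. As deposited, NCBP2-AS2 with NCBP2 (-0.19 and 0.37) is a close pair of opposite sign, and CTD-2196E14.9 with DCTN5 (0.53 and 0.27) one of the same sign. With GC and length corrected for, NCBP2-AS2 and NCBP2 had -0.05 and -5e-04, no longer of opposite sign. Some pairs share a coding gene, since the 190 pairs hold 180 coding genes.

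**Figure D5:**
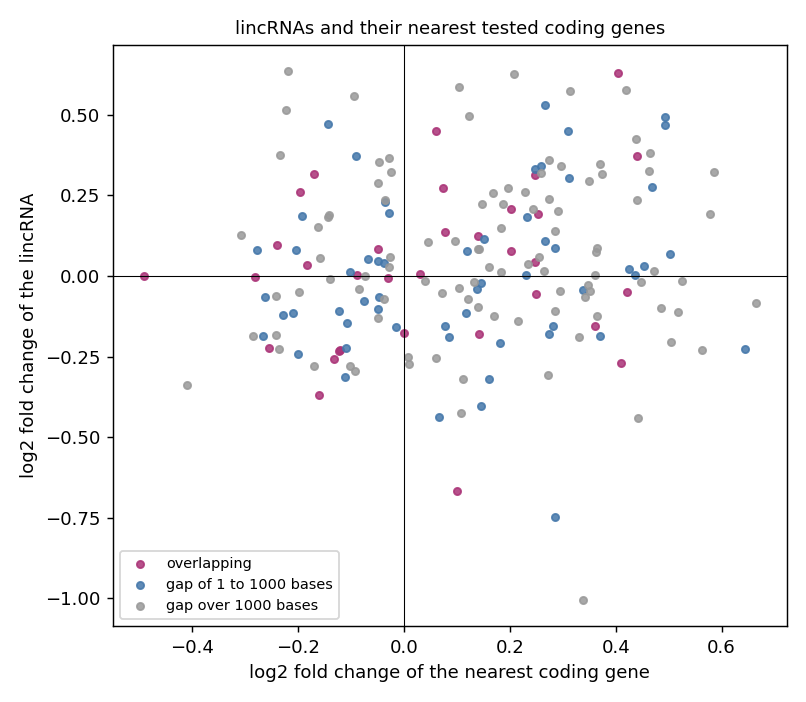
Log2 fold change of each of 190 members against that of its nearest tested protein-coding gene, coloured by overlap or by the gap between them in hg19. The points spread over all 4 quadrants, with r of 0.12 over all pairs.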

How the data were processed

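RNA of 6 libraries (3 control, 3 dopamine) was depleted of ribosomal RNA and made into stranded total RNA libraries, per the labels' protocols. The authors deposited FPKM values for 26789 genes with hg19 coordinates. The submitters' processing notes name, without roles, DESeq2 1.40.2, HTSeq 0.11.2, STAR 2.7.1a, FastQC 0.11.9 and the build hg19. Which gene annotation was used, how strand was set in counting and how FPKM was made: not given in the sources used here. FPKM divides by a library total, so a rise of abundant genes lowers the others.

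Depth came from the value steps of 2797 pseudogenes of 150 to 1500 bases, of whose low values 92.6 to 94.0% were whole fragments within 0.03. Groups came from the sample titles. Genes with a mean of at least 1 FPKM over the 6 libraries (11791) were compared as log2(FPKM + 0.5), which understates the change of low genes, with limma 3.58.1 in R 4.3.3 (prior variance with an intensity trend, Benjamini-Hochberg adjustment, two-sided, called under 0.05). On simulated data for this comparison over 11791 genes a 1.5-fold change was found in 46.5% of changed genes, a 2-fold change in 83% and a 4-fold change in 99%. False calls numbered 4, 12 and 9. These shares are not for the members alone, which varied more within a group (median SD 0.19 against 0.14 log2 units over all genes).

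The members and lists were chosen with earlier results of these data known. Named were the 12 most abundant members, the 8 largest differences in each direction among members whose groups did not overlap, members on the lincRNA lists, those nearest the level limit, and up to 4 genes with the smallest p of each protein list. LINC00116, MIR24-2, MIR940 and RP11-2B6.3 were added after their values were seen, as were KDM2B, WDR81, DCTN5 and GATA3 as neighbours. GC content, length and present gene types came from GENCODE v29 by gene identifier, with no coordinates mixed between builds. The longest transcript there can be longer than the model counted. The correction subtracted a loess curve (span 0.5), fitted per library to its deviations, over GC and log2 length, over 11579 genes. Alternatives were 2 pseudocounts, 2 filters, scaling by quantiles, TPM or median of ratios, no trend, sample quality weights, a replicate block, leaving out libraries, and this correction.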

Additional observations from a re-analysis of the deposited data

How the results depend on the processing

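No member passed in 15 of the 17 alternatives run for the whole set of members, which leave out the GC and length correction. With sample quality weights 40 members passed (82 at an unadjusted p under 0.05), and 2706 of all genes did. With each library left out in turn 0 to 17 members passed, 17 of them without control replicate 1, and 3 to 2177 of all genes did. The count over all genes was 6 with no filter, 27 with quantile normalization, 5 with no trend and 28 once GC and length were corrected for. It was 7 without both replicates numbered 3. Libraries with the same replicate number had correlations of deviations of -0.20, 0.28 and -0.37, which cannot settle whether the samples were paired. With a replicate block 0 members and 3 genes passed.

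The members' median log2 fold change was 0.03, with -0.07 under median-of-ratios scaling and -0.12 under quantile normalization, and 0.02 to 0.05 with a library left out. Median-of-ratios scaling moved the median of all genes from 0.08 to -0.02.

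Of 49 named genes 38 kept their direction in every alternative run for them (9 of the 49 had no GC and length value and so 17 alternatives in place of 18), and 11 reversed in 25 values. Log2 fold changes on the other side of 0 were -0.0775 (TP53TG1) and -0.0229 (LINC00839) with median-of-ratios scaling, and 0.002 (RP11-865I6.2) and -0.0097 (TP53TG1) with quantile normalization. With sample quality weights they were 0.0269 (RP11-865I6.2), 0.0055 (GATA3-AS1) and -0.2272 (RP11-2B6.3). Without both replicates numbered 3 they were 0.0508 (RP11-865I6.2), 0.0068 (CTC-503J8.6), 0.0499 (GATA3-AS1) and -0.1045 (RP11-2B6.3). With GC and length corrected for they were -0.0249 (TP53TG1), -0.0623 (CRNDE), -0.0586 (EPB41L4A-AS1), 0.0807 (GATA3-AS1), -0.0062 (TARDBP) and -5e-04 (NCBP2). With a library left out the ranges that crossed 0 were -0.1063 to 0.0684 (RP11-865I6.2), -0.0242 to 0.0766 (TP53TG1), -0.1059 to 0.0082 (MIR4435-1HG), -0.0647 to 0.016 (GATA3-AS1) and -0.0118 to 0.6419 (RP11-2B6.3). The cause was not tested. Depth limits the members of few fragments, SNORA71B and RP11-10C24.1 among them.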
